A study of Mus musculus with 12 samples.

Results

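The SWI/SNF complexes, also called BAF complexes, are remodellers that use ATP to slide or evict nucleosomes. The 10 subunit genes described here were taken by symbol: Smarca4, Smarca2, Smarcb1, Smarcc1, Smarcc2, Smarcd1, Smarcd2, Arid1a, Arid1b and Arid2. They are 10 of the 16699 genes counted in both unstimulated and lipopolysaccharide (LPS)-stimulated cells, and all 10 passed the filter on low counts in every comparison. Each was counted by 2386 to 32117 reads in each library.

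RNA-seq was done on J774A.1 cells, a mouse macrophage line, in 4 groups of 3 libraries, 12 libraries in all. The WT lines had been transfected with the pSpCas9-2A-GFP vector without a guide RNA, and the ACAT1 KO lines with the same vector carrying a guide against the fourth exon of Acat1, the gene of a mitochondrial acetyl-CoA acetyltransferase. RNA of each genotype was taken from unstimulated cells and from cells given LPS, the bacterial ligand of TLR4, at 100 ng/ml for 2 hours. All lines had been sorted for GFP and grown from a few cells per well, so that genotype and the clonal origin of a line cannot be told apart beyond the spread of 3 lines. The p-values measure the spread between the 3 libraries of a group. Without stimulation this spread also holds that between libraries with more and fewer antisense counts, given below. The main tests of LPS did not pair libraries by line. In bulk RNA, fewer cells with a transcript and less of it per cell cannot be told apart either.

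Libraries held 56948593 to 167280149 counts. Acat1, the targeted gene, was 98.8 ± 15.6 CPM (counts scaled to library size) in WT and 26.8 ± 1.82 CPM in ACAT1 KO cells without stimulation (SD, n = 3), and 81.9 ± 15.5 against 19.1 ± 0.732 CPM after LPS. All 9 macrophage markers examined were counted, at a summed level of 8802 to 11510 CPM in a library, and 4 of 14 markers of other cell types, namely Cd4, Cd79a, Pecam1 and Cdh5, were counted at 1.40 to 3.71 CPM in sum, the other 10 not being listed in both tables. Of the 9 macrophage markers, 2 were lower in unstimulated ACAT1 KO cells, Adgre1 and Fcgr1 (1.17% of all genes tested were), and 0 higher (0.742%). After LPS 3 were higher, Cd14, Itgam and Spi1 (5.93% of all genes tested), and 1 lower, Fcgr1 (9.12%). These calls are from edgeR's quasi-likelihood test at a Benjamini-Hochberg adjusted p under 0.05. The part of these markers in the results below was not tested. In WT replicates 1 and 2 and ACAT1 KO replicate 2 without stimulation, genes lying antisense to others took 0.0299% to 0.0477% of counts, against 0.00553% to 0.00755% in the other 9 libraries.

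SWI/SNF complexes are built on either of the alternative ATPases SMARCA4 (BRG1) and SMARCA2 (BRM), with SMARCC scaffold proteins and SMARCD proteins in the core. Canonical BAF and PBAF also hold SMARCB1 (SNF5) and an ARID subunit, ARID1A or ARID1B in canonical BAF and ARID2 in PBAF, whereas the non-canonical BAF complex has neither SMARCB1 nor an ARID subunit. In macrophages SMARCA4-containing complexes are known for remodelling nucleosomes at inducible inflammatory genes, and genes with CpG-poor promoters depend on them most.

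The promoters of Smarca4 and Smarca2 are shown because their transcripts moved in opposite directions after LPS. That of Arid1a is shown because its transcript rose with LPS and, after LPS, was called lower in ACAT1 KO cells. The sequences are from RefSeq (GRCm38.p6), 5′ to 3′ on the gene's strand, 250 bases before the RefSeq start or, for Smarca2, the 140 of them that lie before the GENCODE gene. Capitals mark GGGCGG, the GC box, on either strand.
Smarca4, chr9:21615919-21616168, plus strand: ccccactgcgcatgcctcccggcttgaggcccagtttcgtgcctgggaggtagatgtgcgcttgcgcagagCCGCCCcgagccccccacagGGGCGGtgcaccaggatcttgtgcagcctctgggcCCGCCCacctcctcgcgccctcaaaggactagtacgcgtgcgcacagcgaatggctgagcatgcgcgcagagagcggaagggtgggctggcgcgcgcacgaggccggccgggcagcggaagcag
Smarca2, chr19:26604910-26605049, plus strand: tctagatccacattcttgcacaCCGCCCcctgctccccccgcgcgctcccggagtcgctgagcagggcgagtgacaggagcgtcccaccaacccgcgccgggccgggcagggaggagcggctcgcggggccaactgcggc
Arid1a, chr4:133756770-133757019, minus strand: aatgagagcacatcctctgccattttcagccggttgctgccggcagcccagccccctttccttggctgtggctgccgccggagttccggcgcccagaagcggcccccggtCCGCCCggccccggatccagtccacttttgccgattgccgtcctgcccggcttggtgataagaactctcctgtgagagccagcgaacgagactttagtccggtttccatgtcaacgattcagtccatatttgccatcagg

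RefSeq windows matched 9 of the 10 genes, with 2 starts for Arid1a, and Arid2 had none. The windows of Smarcc1, Smarcd2, Arid1b and the downstream start of Arid1a lay wholly inside the GENCODE gene. The GC box stood in 9 of the 10 windows, the exception being Smarcc2, and in 32.7% of 32851 windows of all genes. CGGAAG, an ETS core, stood in those of Smarca4, Smarcc1 and Smarca2, and in 13.6% of all windows. TATAAA was found only in the window of Smarcd2 (12.4% of all), and neither CCAAT (33.8% of all) nor the NF-kB motif (3.90% of all) was found in any of the 10; both strands were searched, and GGGCGG and CGGAAG can share bases. The windows held 4 (Smarcd2) to 40 (Smarcc2) CpG, against a median of 6 over all windows. These matches describe the letters and do not show binding.

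Levels were compared between genes as CPM per kb of exon. In unstimulated WT cells Smarcd2 stood highest, 29.9 ± 2.03 CPM per kb (SD, n = 3), followed by Smarca4 (21.4 ± 1.98), Smarcc2 (19.2 ± 1.98), Smarcc1 (13.8 ± 0.700) and Arid1a (11.6 ± 1.49). The lower levels per kb were Smarcd1 (9.20 ± 0.489), Arid2 (5.48 ± 0.733), Smarcb1 (5.08 ± 0.391), Smarca2 (4.41 ± 0.133) and Arid1b (4.04 ± 0.538). In that order Smarca4 and Smarcc2, Arid2 and Smarcb1, and Smarca2 and Arid1b overlapped with their neighbour in the ranges of the 3 libraries, whereas the other neighbours did not.

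After LPS Smarca4 led in WT cells at 29.8 ± 0.950 CPM per kb, above Smarcd2 at 24.4 ± 1.77, and Smarca2 came last at 2.72 ± 0.170 (SD, n = 3). The ACAT1 KO lines had the same genes in first and in last place after LPS, Smarca4 at 27.5 ± 0.756 and Smarca2 at 2.69 ± 0.189 CPM per kb. These places depend on the length used. Per kb of longest transcript Smarcd2 was first in all 4 groups, overlapping Smarca4 in WT cells after LPS, and Smarca2, whose exons sum to 14269 bases but whose longest transcript has 5921, ranked seventh in unstimulated WT cells and eighth after LPS. Smarca4 was higher than Smarca2 per kb in all 4 groups by either length.

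**Figure D1:**
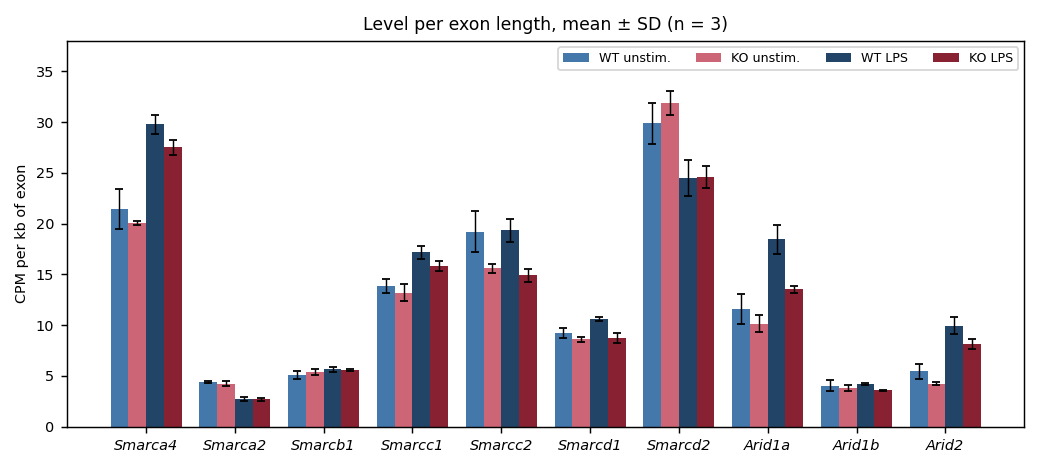
Mean level per kb of exon (bars, CPM per kb, axis from 0) of the 10 subunits in the 4 groups, with the SD over 3 lines. Smarcd2 and Smarca4 are the highest bars in every group, and the LPS bars of Smarca4 and Arid1a exceed the unstimulated ones, while those of Smarca2 and Smarcd2 are shorter.

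Gene positions below are those of GENCODE on GRCm38. The response to LPS was tested in each genotype, and the ATPases moved in opposite directions: Smarca4 rose and Smarca2 fell. In WT cells 5 of the 10 subunits rose (29.3% of the 16535 genes tested did) and 2 fell (28% did). In ACAT1 KO cells 4 rose (29.5% of all genes) and 2 fell (31.2%). The members' median log2 fold change was 0.18 in WT and 0.03 in ACAT1 KO cells, against -0.02 and -0.03 for all genes tested. Calls are at a Benjamini-Hochberg adjusted p under 0.05 in edgeR's quasi-likelihood test, here and below. With 7 of 10 called in WT and 6 of 10 in ACAT1 KO cells, these counts were near the background and show nothing particular to the subunits as a group.

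Smarca4 (chr9:21616169-21704230), the ATPase known from inducible inflammatory genes, was 130, 154 and 133 CPM in the 3 WT lines without stimulation and 191, 200 and 188 CPM after LPS. In the ACAT1 KO lines it was 129, 131 and 129 CPM before and 178, 183 and 173 CPM after. All LPS libraries of a genotype lay above all its unstimulated ones. The share of all genes whose LPS and unstimulated libraries did not overlap was not computed, here and for the subunits below. Its mean rose 1.39-fold in WT (log2 fold change 0.47, SE 0.065, adjusted p = 5.37e-05 in edgeR's quasi-likelihood test) and 1.37-fold in ACAT1 KO cells (0.46, SE 0.065, adjusted p = 6.45e-05).

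Smarca2 (chr19:26605050-26778322), the alternative ATPase, was 63.8, 64.2 and 60.7 CPM in unstimulated WT lines and 37.97, 36.9 and 41.6 CPM after LPS. The ACAT1 KO lines went from 61.1, 63.8 and 56.6 CPM to 37.6, 41.3 and 36.1 CPM. Every library was thus lower with LPS, in both genotypes. The mean fell by 38.3% in WT (log2 fold change -0.70, SE 0.070, adjusted p = 4.30e-06 in edgeR's quasi-likelihood test) and by 36.7% in ACAT1 KO cells (-0.66, SE 0.070, adjusted p = 6.00e-06).

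Of the core subunits, Smarcc1 (chr9:110117708-110240178), a scaffold protein of the complex, rose. It was 106, 114 and 104 CPM in unstimulated WT lines and 129, 138 and 137 CPM after LPS, a log2 fold change of 0.31 (SE 0.062, adjusted p = 9.09e-04, edgeR's quasi-likelihood test). ACAT1 KO lines rose from 99.6, 111 and 99.5 CPM to 119, 127 and 125 CPM, a log2 fold change of 0.26 (SE 0.061, adjusted p = 0.00302). The groups did not overlap in either genotype. Exons of Dhx30, a gene on the other strand that was counted at 79.7 to 118 CPM, cover 1.57% of those of Smarcc1. The other scaffold gene, Smarcc2 (chr10:128459248-128490482), did not pass the test, with 107 ± 10.96 and 107 ± 6.09 CPM in WT and 86.6 ± 2.50 and 82.7 ± 3.46 CPM in ACAT1 KO cells before and after LPS (SD, n = 3).

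Smarcd2 (chr11:106263179-106272972), whose product, like SMARCD1, bridges the complex to transcription factors, fell. It was 114, 99.8 and 108 CPM in unstimulated WT lines and 92.2, 80.5 and 90.6 CPM with LPS, and in ACAT1 KO lines 109, 117 and 116 CPM against 83.9, 91.5 and 89.6 CPM. No LPS library reached an unstimulated one of its genotype. The log2 fold change was -0.29 in WT (SE 0.070, adjusted p = 0.00371, edgeR's quasi-likelihood test) and -0.37 in ACAT1 KO cells (SE 0.070, adjusted p = 5.80e-04).

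Smarcd1 (chr15:99702129-99713991) moved the other way in WT cells, from 39.2, 36.4 and 35.5 CPM to 43.2, 43.3 and 41.6 CPM (log2 fold change 0.21, SE 0.059, adjusted p = 0.0105, edgeR's quasi-likelihood test). In ACAT1 KO lines it was 35.9, 33.95 and 34.4 CPM before and 34.1, 37.4 and 34.3 CPM after LPS, and did not pass the test (log2 fold change 0.02, SE 0.059, adjusted p = 0.764). The WT groups did not overlap and the ACAT1 KO groups did. With offsets for length and GC content Smarcd1 passed in ACAT1 KO cells too (log2 fold change 0.20, also with the block), and in WT cells the call was lost under upper-quartile scaling and with the antisense term. Exons of Gm17349 and ENSMUSG00000116250, genes on the other strand, cover 12.7% of the exons of Smarcd1, and Gm17349 was counted at 0.319 to 0.665 CPM.

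Smarcb1 (chr10:75896769-75921617), the core subunit also called SNF5, did not pass the test in either genotype. Its mean was 40.2 ± 3.103 and 44.9 ± 1.88 CPM before and after LPS in WT (log2 fold change 0.16, SE 0.067, adjusted p = 0.0611, edgeR's quasi-likelihood test) and 42.9 ± 2.39 and 44.3 ± 1.05 CPM in ACAT1 KO cells (SD, n = 3).

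Arid2 (chr15:96287518-96404992), which defines PBAF, had the largest log2 fold change with LPS of the 10 subunits in both genotypes in the main fit. Under upper-quartile scaling that of Smarca2 was larger in size (-0.91 against 0.65 for Arid2 in WT and -0.81 against 0.79 in ACAT1 KO cells). In WT Arid2 went down to 0.6192 in another alternative, where Smarca2 was also larger in size, being -0.6377 or lower in all 23. Arid2 was 66.9, 58.5 and 51.1 CPM in unstimulated WT lines and 117, 101 and 102 CPM after LPS, a 1.81-fold rise of the mean (log2 fold change 0.86, SE 0.094, adjusted p = 8.20e-06, edgeR's quasi-likelihood test). In ACAT1 KO lines it went from 46.2, 46.7 and 44.1 CPM to 94.0, 85.4 and 83.5 CPM, a 1.92-fold rise (log2 fold change 0.94, SE 0.094, adjusted p = 3.46e-06). The lowest LPS library lay well above the highest unstimulated one in each genotype.

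Arid1a (chr4:133679008-133756769), the ARID subunit of most canonical BAF complexes, was 138, 147 and 114 CPM in unstimulated WT lines and 195, 228 and 212 CPM after LPS. In the ACAT1 KO lines the values were 108, 127 and 114 CPM and then 153, 160 and 154 CPM. LPS and unstimulated libraries did not overlap in either genotype. The log2 fold change was 0.67 in WT (SE 0.096, adjusted p = 7.96e-05, edgeR's quasi-likelihood test) and 0.42 in ACAT1 KO cells (SE 0.096, adjusted p = 0.00234). Its paralog Arid1b (chr17:4994332-5347656) did not pass the main test in either genotype, at 50.9 ± 6.78 and 52.8 ± 1.18 CPM in WT and 48.1 ± 3.32 and 45.1 ± 0.790 CPM in ACAT1 KO cells before and after LPS (SD, n = 3). In WT cells Arid1b passed in 1 of 23 alternatives, the antisense term with the block (adjusted p = 0.0366, edgeR's quasi-likelihood test).

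Smarca4, Smarca2, Smarcd2, Arid1a and Arid2 were called in the same direction in all 23 alternatives in each genotype, and Smarcb1 passed in WT without WT unstimulated replicate 3 (adjusted p = 0.0202, edgeR's quasi-likelihood test). Upper-quartile scaling moved the median of all genes to -0.23 in WT and -0.17 in ACAT1 KO cells, and the genes higher with LPS from 4850 of 9488 called to 3628 of 10309 in WT and from 4871 of 10037 to 3921 of 10481 in ACAT1 KO cells. Under it Smarcc1 was 0.10 and 0.11 and no longer passed, Smarcd1 in WT was -0.0040, and Smarcc2 passed as lower in both genotypes (-0.20 and -0.22), as did Arid1b in ACAT1 KO cells (-0.24).

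**Figure D2:**
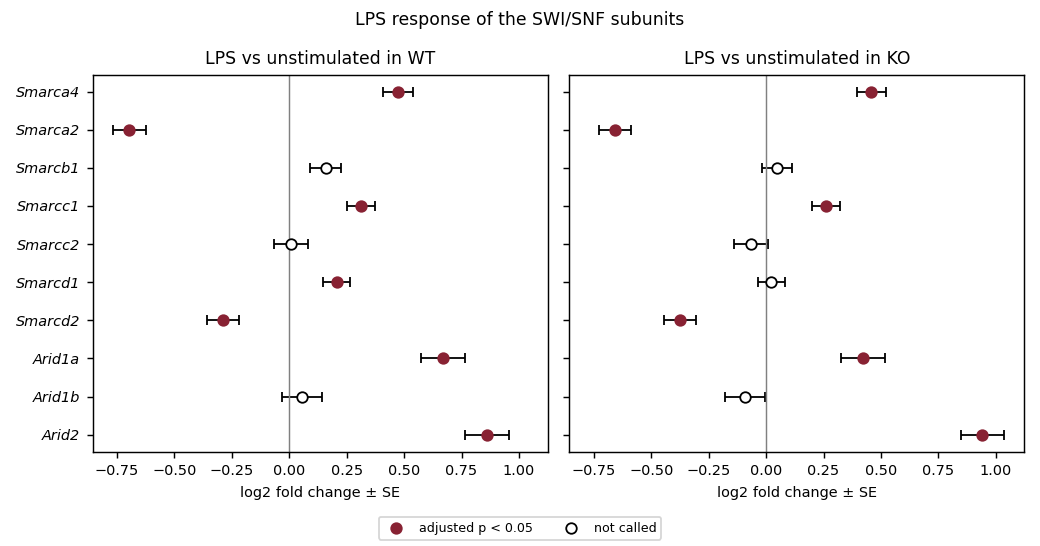
log2 fold change of each subunit with LPS (x axis, points) in WT (left) and ACAT1 KO lines (right), with standard errors; filled points passed an adjusted p under 0.05 in edgeR's quasi-likelihood test. Arid2, Arid1a, Smarca4 and Smarcc1 lie right of 0 and Smarca2 and Smarcd2 left of it in both panels.

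The balance of paralogs was followed as the log2 ratio of their CPM within each library, for 4 pairs and 4 contrasts. The ratio of Smarca2 to Smarca4 was -1.03, -1.26 and -1.13 in unstimulated WT lines and -2.33, -2.43 and -2.18 after LPS. In ACAT1 KO lines it was -1.08, -1.04 and -1.18 and then -2.24, -2.15 and -2.26. LPS thus lowered it by 1.17 ± 0.101 (SE) in WT and 1.12 ± 0.056 in ACAT1 KO cells on the log2 scale, or 2.26-fold and 2.17-fold, with no overlap. The exact permutation test of 3 against 3, two-sided, gave p = 0.1, the smallest it allows, and adjusted p = 0.114 over the 16 tests, so this test cannot pass 0.05 for any ratio.

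The ratios of Smarcc2 to Smarcc1, Smarcd2 to Smarcd1 and Arid1b to Arid1a also went down with LPS without overlap, in both genotypes. The mean differences were -0.30 and -0.33 for the scaffold pair, -0.50 and -0.39 for the SMARCD pair and -0.61 and -0.51 for the ARID1 pair, in WT and ACAT1 KO cells (each exact permutation p = 0.1, adjusted p = 0.114). Between genotypes the ATPase ratio overlapped in both states, with ACAT1 KO minus WT differences of 0.04 ± 0.079 (SE) unstimulated and 0.10 ± 0.083 with LPS (exact permutation p = 0.7 and 0.4). The other 3 ratios did not overlap between genotypes in either state, Smarcc2 to Smarcc1 being lower in ACAT1 KO lines by 0.23 and 0.25, and Smarcd2 to Smarcd1 and Arid1b to Arid1a higher, by 0.19 and 0.29 and by 0.12 and 0.22, before and after LPS (each exact permutation p = 0.1). The unstimulated gap was narrow for Smarcd2 to Smarcd1, the highest WT line having 1.600 and the lowest ACAT1 KO line 1.608. Single genes did not overlap between genotypes in 25.5% of cases without stimulation and 36.9% after LPS. The share for ratios of other gene pairs, between genotypes or with LPS, was not computed.

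**Figure D3:**
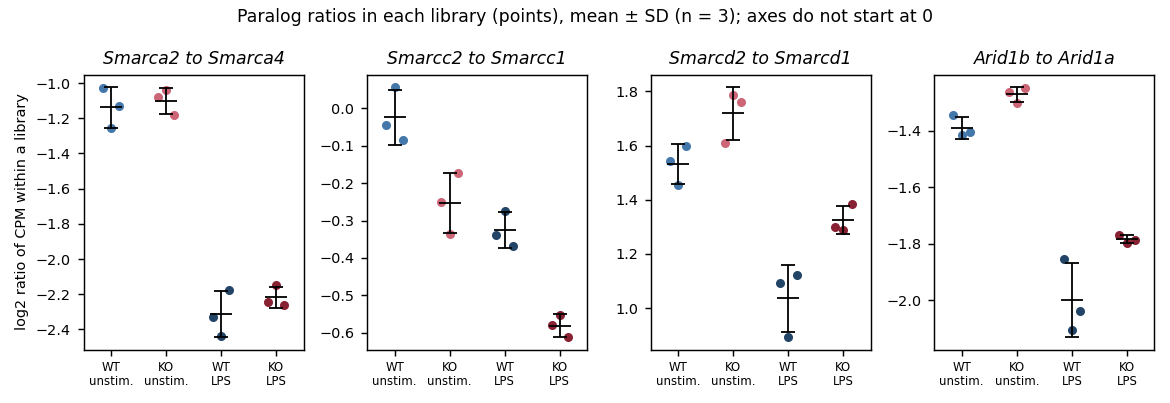
log2 ratio of CPM of 4 paralog pairs (y axis, not starting at 0) in each of the 12 libraries (points), with the mean and SD of 3 lines. The Smarca2 to Smarca4 ratio separates LPS from unstimulated libraries and not the genotypes. In the other 3 panels the genotypes do not overlap within a state, nor do LPS and unstimulated libraries within a genotype.

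The comparison of genotypes after LPS asks which subunits differed between the lines once stimulated. Of the 10 subunits 5 were lower in ACAT1 KO cells (9.12% of the 16483 genes tested were) and 0 were higher (5.93% were), by edgeR's quasi-likelihood test, and 5 had an unadjusted p under 0.05 in the lower direction (17.2% of all genes). In 7 of the 10 the groups did not overlap, all lower in ACAT1 KO cells (36.9% of genes did not overlap in either direction). The members' median log2 fold change was -0.15, against -0.0041 for all genes. These libraries after LPS also entered the LPS comparisons, so the values are not independent of those.

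Arid1a was the most different in ACAT1 KO cells after LPS. With 195, 228 and 212 CPM in WT and 153, 160 and 154 CPM in ACAT1 KO lines it was 26.5% lower, and the lowest WT line lay above the highest ACAT1 KO line. The log2 fold change was -0.42 (SE 0.065, adjusted p = 0.00721, edgeR's quasi-likelihood test). Arid1b was lower as well, with 54.0, 52.9 and 51.6 CPM against 44.8, 46.0 and 44.6 CPM, also without overlap (log2 fold change -0.21, SE 0.051, adjusted p = 0.0332). Arid2 was 117, 101 and 102 CPM in WT and 94.0, 85.4 and 83.5 CPM in ACAT1 KO lines (log2 fold change -0.26, SE 0.075, adjusted p = 0.0496). The transcripts of all 3 ARID subunits were thus called lower in the main fit, but Arid1b passed in only 6 and Arid2 in only 4 of 17 alternatives.

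Smarcc2, the other scaffold subunit, was 102, 114 and 106 CPM in WT and 79.9, 86.6 and 81.8 CPM in ACAT1 KO lines. It was 22.9% lower, with no overlap (log2 fold change -0.35, SE 0.061, adjusted p = 0.0101, edgeR's quasi-likelihood test). Smarcd1 was 43.2, 43.3 and 41.6 CPM in WT and 34.1, 37.4 and 34.3 CPM in ACAT1 KO lines, again without overlap (log2 fold change -0.26, SE 0.059, adjusted p = 0.0268).

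The ATPases did not pass the test after LPS. Smarca4 differed by -0.09 on the log2 scale (SE 0.050, adjusted p = 0.247, edgeR's quasi-likelihood test) and Smarca2 of 0.0018 (SE 0.074, adjusted p = 0.992). Smarcc1 had -0.10 (SE 0.054, adjusted p = 0.252), and like Smarca4 its 3 ACAT1 KO libraries lay below the 3 WT libraries. Smarcb1 and Smarcd2 had 0.00029 (SE 0.057) and 0.03 (SE 0.070), with overlapping groups.

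Arid1a and Smarcc2 were called in all 17 alternatives (adjusted p up to 0.0339 and 0.0447), Smarcd1 in 12, Arid1b in 6 and Arid2 in 4. Arid1b and Arid2 passed in none of the fits without 1 library (adjusted p 0.0521 to 0.117 and 0.0672 to 0.163), Smarcd1 was lost without WT replicate 2, ACAT1 KO replicate 1 or ACAT1 KO replicate 3 (adjusted p = 0.0761, 0.0913 and 0.102), and offsets for gene length and GC content left 2 called and a median of -0.05. Smarcd1 and Arid2 lie on chromosome 15, where the median over 638 genes was -0.12 on the log2 scale, and the part of this in their values was not tested.

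**Figure D4:**
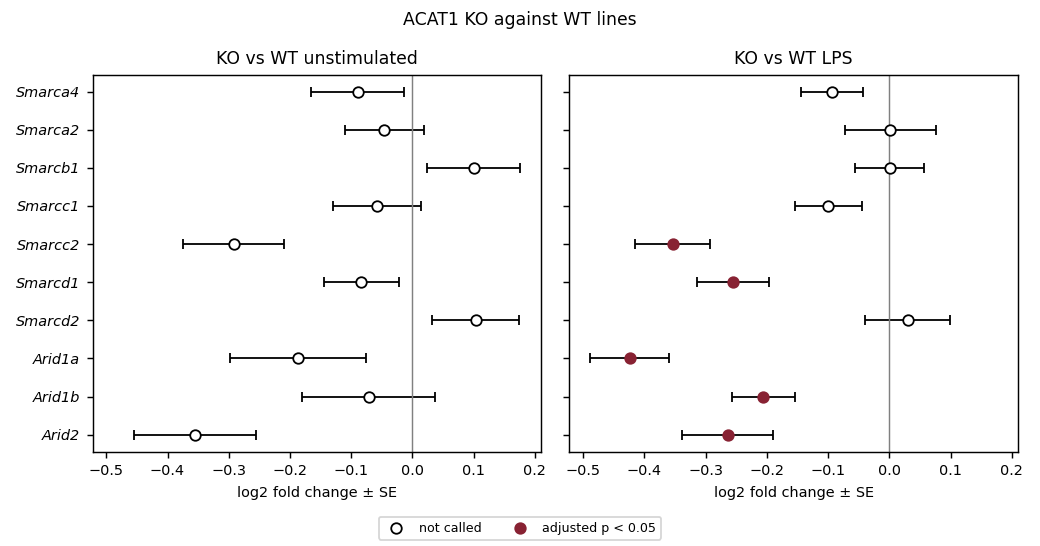
log2 fold change of each subunit in ACAT1 KO against WT lines (x axis, points) without stimulation (left) and after LPS (right), with standard errors; filled points passed an adjusted p under 0.05 in edgeR's quasi-likelihood test. The filled points are Arid1a, Smarcc2, Smarcd1, Arid1b and Arid2, all on the right panel and left of 0.

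Without stimulation 0 of the 10 subunits passed the test between genotypes in either direction (0.742% of the 16440 genes tested were higher and 1.17% lower in ACAT1 KO cells), and 2 had an unadjusted p under 0.05, both lower (9.93% of all genes were). These were Smarcc2, with 103, 119 and 98.4 CPM in WT and 83.7, 87.8 and 88.3 CPM in ACAT1 KO lines, and Arid2, with 66.9, 58.5 and 51.1 against 46.2, 46.7 and 44.1 CPM. They were the only members whose groups did not overlap, a share of 2 in 10 against 25.5% of all genes. The log2 fold change was -0.29 (SE 0.082, adjusted p = 0.121, edgeR's quasi-likelihood test) for Smarcc2 and -0.36 (SE 0.099, adjusted p = 0.121) for Arid2. On chromosome 15, where Arid2 lies, the median over 638 genes was -0.10 on the log2 scale without stimulation. The part of this in the value of Arid2 was not tested. Replicates differed more here than after LPS, with a common coefficient of variation over all genes of 0.285 against 0.108. The numbers of calls before and after LPS are therefore not directly comparable.

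DESeq2, the other count test, called both lower (adjusted p = 0.0177 for Smarcc2 and 0.0155 for Arid2), as did the fit of all 12 libraries together (0.0303 and 0.0364), and Arid2 passed without WT replicate 3 (0.0465). Over all 18 alternatives the adjusted p ranged from 0.0177 to 0.295 for Smarcc2 and from 0.0155 to 0.323 for Arid2. Among the 3 libraries with more antisense counts (2 WT and 1 ACAT1 KO) the differences of mean log2 CPM were -0.33 for Smarcc2 and -0.42 for Arid2, and among the other 3 they were -0.20 and -0.18. The other 8 subunits ranged from -0.19 for Arid1a (adjusted p = 0.411) to 0.10 for Smarcd2 (adjusted p = 0.487), and the median over the 10 was -0.08, against 0.0035 for all genes.

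**Figure D5:**
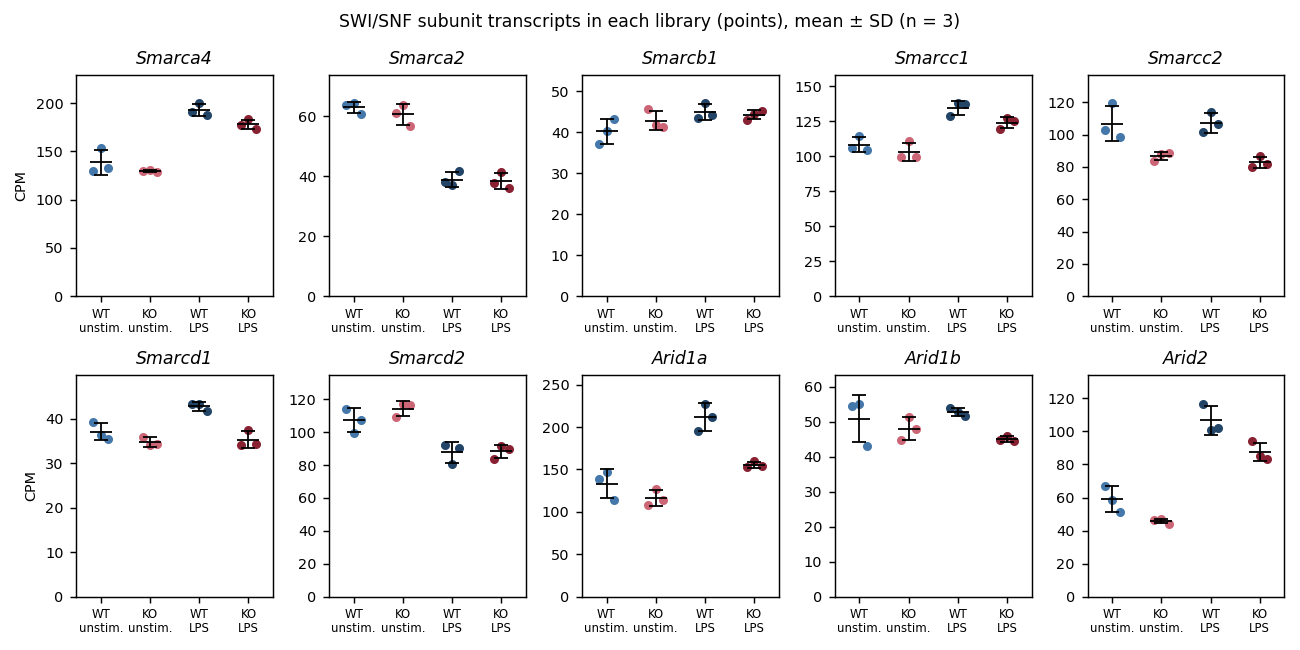
CPM of each subunit (y axes from 0) in every library (points) of the 4 groups, with the mean and SD of 3 lines. The LPS points of Smarca4, Arid1a and Arid2 stand above the unstimulated ones and those of Smarca2 and Smarcd2 below, and the 3 ACAT1 KO points of Smarcc2 and Arid2 lie below the 3 WT points in each state.

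Whether LPS acted differently in the 2 genotypes was tested by the interaction. Of the 10 subunits 0 passed (0.0484% of 16535 genes were higher and 0.139% lower, 31 genes in all, by edgeR's quasi-likelihood test). Only 1 of them, Smarcd1, had an unadjusted p under 0.05, and the share of all genes under that threshold was not computed. DESeq2 and limma-voom also called 0 of the 10 subunits. Smarcd1 had an interaction of -0.18 on the log2 scale (SE 0.084, adjusted p = 0.558 in edgeR's quasi-likelihood test). For Arid1a it was -0.25 (SE 0.135, adjusted p = 0.657) and for Arid2 0.08 (SE 0.132, adjusted p = 0.951). The calls of Arid1a, Smarcd1 and others after LPS alone therefore do not show that the genotypes differed in their response.

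The remaining subunits of the complexes were taken as a list of 19 genes, of which 18 were tested. In WT cells 7 rose and 5 fell with LPS (29.3% and 28% of all genes did) and in ACAT1 KO cells 5 rose and 6 fell (29.5% and 31.2% of all genes), the fallers in both including Smarcd3, whose libraries are described below. Dpf2, whose product reads histone marks in canonical BAF, rose from 61.1, 68.2 and 62.9 CPM to 130, 132 and 120 CPM in WT lines (log2 fold change 0.99, SE 0.060, adjusted p = 5.86e-08, edgeR's quasi-likelihood test). Actb, the gene of the beta-actin found in the complex and in the cytoskeleton, had a log2 fold change of 1.23 (adjusted p = 3.65e-07) and Smarce1, the HMG-box subunit BAF57, one of 0.74 (adjusted p = 6.97e-06). Bcl7a, an accessory subunit, fell from 9.10, 12.7 and 9.96 CPM to 2.76, 3.86 and 2.59 CPM (log2 fold change -1.79, SE 0.167, adjusted p = 2.23e-06).

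Between genotypes 1 of these 18 subunits was higher and 1 lower without stimulation (0.742% and 1.17% of all genes were), and 1 was higher and 3 lower after LPS (5.93% and 9.12% of all genes). Bcl7a was the lower one in both states, with 4.52, 4.87 and 5.11 CPM in unstimulated ACAT1 KO lines (log2 fold change -1.12, SE 0.152, adjusted p = 0.0344, edgeR's quasi-likelihood test) and 1.04, 1.09 and 1.10 CPM after LPS (-1.49, SE 0.175, adjusted p = 0.00324). Phf10, a PBAF subunit, was higher in both, at 183, 167 and 174 CPM against 135, 138 and 139 CPM in WT lines without stimulation (log2 fold change 0.36, SE 0.057, adjusted p = 0.0403) and with a log2 fold change of 0.22 after LPS (adjusted p = 0.0293). After LPS Bicral, a subunit of the non-canonical BAF complex, had a log2 fold change of -0.65 (adjusted p = 0.0109) and Dpf3, counted at under 1 CPM, one of -0.94 (adjusted p = 0.0484).

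Leaving out 1 library kept the unstimulated calls of Bcl7a and Phf10 in only 1 of 6 fits each, and after LPS those of Bcl7a and Bicral in 6 of 6 but those of Phf10 and Dpf3 in 1 of 6. Smarcd3, the third SMARCD gene, was named after its values were seen: it was 2.58, 4.03 and 4.48 CPM in the unstimulated libraries with more antisense counts (WT replicates 1 and 2 and ACAT1 KO replicate 2) and 0.162 to 0.427 CPM in the other 9, and the part of the antisense counts in this was not tested.

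Genes outside the 10 whose log2 CPM followed the ATPases most closely over the 12 libraries were named as a description. For Smarca4 they were Camkk2 (Pearson's r = 0.993), Cert1 (0.991) and Xpo4 (0.991), and for Smarca2 they were Tep1 (0.991), Per3 (0.991) and Abcd2 (0.990), the highest of 16535 genes. The 12 libraries fall into LPS and unstimulated ones, and the points share that step and the libraries. Camkk2, which encodes a calcium-dependent kinase, was 32.8 to 50.3 CPM in unstimulated libraries and 73.6 to 104 CPM after LPS. Abcd2, a peroxisomal fatty acid transporter gene, was 20.1 to 26.4 CPM and 3.20 to 4.47 CPM.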

How the data were processed

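RNA-seq libraries of 3 WT and 3 ACAT1 KO lines, each without stimulation and with LPS, were grouped by their labels. The authors trimmed reads with Trimmomatic 0.33 and used HISAT2 on GRCm38 and StringTie, and the libraries were made with a directional kit. The authors deposited raw gene counts in 1 table for each state; the step giving whole counts and its use of strand are not given in the sources used here. Their 12 columns of log2 values and their columns of fold changes, scores and p-values were not used.

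After 59 and 57 repeated entries were removed, 17544 and 17874 genes remained, each with at least 4 counts in at least 5 of 6 libraries. Counts were fitted in edgeR 4.0.16 (R 4.3.3) with filterByExpr, TMM and the quasi-likelihood test, two-sided, with Benjamini-Hochberg adjustment over all genes tested. Genotypes were compared within a state, and LPS and the interaction over the 16699 shared genes in a fit of 12 libraries, in which effects of LPS are confounded with any difference in how the tables were made. CPM printed are from TMM over the 12 libraries, and log2 CPM for correlations used a prior count of 2. Exon lengths and coordinates are from GENCODE vM21 (GRCm38). Fits were tested on simulated data.

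The 10 members and the lists were chosen with earlier results of these data known. Named genes are the 10 members, Acat1, at most 4 called genes of each list with the smallest p in a comparison, and for each ATPase the 3 genes most correlated with it, of which the text gives some. Libraries of a group differed by more than sampling noise (chi-square per degree of freedom 33.6 to 281). At this depth the precision is set by how far replicates differ.

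The alternatives were DESeq2 1.42.0, limma-voom (limma 3.58.1), RLE and upper-quartile normalization, no filter or a minimum of 10 counts in each library, a robust dispersion, a block for replicate number, a correction for length and GC content with and without it, all 12 libraries in 1 fit, an antisense term for LPS, chromosome medians subtracted from the median, and each library left out in turn. An antisense term for the unstimulated comparison of genotypes, and its values within the libraries over and under 0.02% antisense counts, were added after seeing the data.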

Additional observations from a re-analysis of the deposited data

How the results depend on the processing

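Over the members, 947 of 1040 values under an alternative kept their direction and side of the threshold, 48 changed sign but were called in neither fit (at most 0.156 in size), 32 lost a call, 11 gained one and 2 reversed. For the other genes named, 1225 of 1304 kept theirs, 79 lost a call and 0 reversed. The reversals came with upper-quartile normalization and LPS in WT cells, Smarcc2 at -0.20 and Smarcd1 at -0.0040. The number of members called between genotypes after LPS was 3 with upper-quartile normalization, 2 with length and GC offsets, also with the block, 3 with all 12 libraries in 1 fit and 2 to 3 without 1 library, against 5. Without stimulation it was 2 with DESeq2 and with all 12 libraries in 1 fit and 0 to 1 without 1 library, against 0; genes called overall were 314, 1721 with DESeq2, 1353 with all 12 libraries, 664 with the antisense term, 522 with robust dispersion, 475 with the stricter filter, 190 with the offsets, 522 without WT replicate 3 and 7 to 34 without another library. Genes called for the interaction were 31, 334 with DESeq2, 11 with limma-voom, 7 with the offsets and 2 to 41 without 1 library. After LPS the genes called overall were 2481, and 867 to 2245 without 1 library. The cause of these changes was not tested.

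The members' median moved to -0.0487 with length and GC offsets between genotypes after LPS and -0.04855 with the block too. For LPS in WT it was -0.0272 with upper-quartile normalization, where the median of all genes was -0.23, and 0.12 with the offsets, with and without the block. For LPS in ACAT1 KO cells it was -0.11 with upper-quartile normalization 0.0937 with the offsets and 0.0948 with offsets and block. For the interaction it was -0.0193 with upper-quartile normalization, -0.0060 with the offsets, -0.0045 with the offsets and the block, and -0.11 to -0.0144 without 1 library. Without 1 library the median between unstimulated genotypes ranged from -0.11 to -0.02325, and the difference of the Smarca2 to Smarca4 ratio there from -0.0212 to 0.0945.

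The replicate number as a block gave 0 and 4 members called between genotypes without and with LPS, Arid1b being lost after LPS (adjusted p = 0.0538), 7 and 6 for LPS in WT and ACAT1 KO cells, and 0 for the interaction; genes called overall were 151 in the unstimulated comparison and 288 for the interaction, against 314 and 31. Phf10, no member, lost its genotype calls in both states under the block (adjusted p = 0.0657 and 0.0512). Same-numbered unstimulated and LPS libraries of a genotype deviated together with r = 0.091 to 0.307 over 16535 genes, and 0.139 to 0.454 over the 11961 with a mean of at least 1 CPM, so the numbers may mark lines, which the labels do not state; WT and ACAT1 KO libraries of the same number had r from -0.337 to 0.650.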

Other observations

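The genes of 4 other groups of ATP-dependent remodellers were counted in the same way, where of all genes tested 29.3% rose and 28% fell with LPS in WT cells and 29.5% rose and 31.2% fell in ACAT1 KO cells. Of the 16 CHD and NuRD genes 9 rose and 5 fell in WT cells and 8 rose and 5 fell in ACAT1 KO cells, with a median log2 fold change of 0.26 and 0.19 (edgeR's quasi-likelihood test, adjusted p under 0.05). Chd9, a CHD-family ATPase, had the smallest p among them, with a log2 fold change of 1.99 in WT and 2.13 in ACAT1 KO cells, and Chd4, the main NuRD ATPase, had 0.96 and 1.10. Of 10 ISWI-group genes tested 5 rose and 3 fell in WT and 5 rose and 2 fell in ACAT1 KO cells, Baz1a rising by 1.39 and 1.46 and its relative Baz2b having -1.06 and -0.79. Smarca5, the ISWI ATPase, had 0.38 and 0.43. Of 15 INO80 and SRCAP genes 7 rose and 2 fell in WT and 5 rose and 3 fell in ACAT1 KO cells, and of 11 other SNF2-like ATPase genes 4 rose and 4 fell in WT and 3 rose and 5 fell in ACAT1 KO cells.

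Between genotypes after LPS, 6 of the CHD and NuRD genes, 4 of the ISWI group, 3 of the other SNF2-like ATPases and 1 of the INO80 and SRCAP genes were lower in ACAT1 KO cells and 0 of any of these lists were higher, while 9.12% of all genes tested were lower and 5.93% higher. Chd3 had a log2 fold change of -1.49 after LPS and -1.56 without stimulation, where it was the only gene of the 4 lists to pass the test. Baz2a, with -0.54 after LPS, was called in all 17 alternatives, as were Chd3 and Mta3 (-0.36). Of the others examined, Yeats4 was called in 15, Chd9 in 14, Baz1a in 13, Ercc6 in 12, Baz1b and Smarcal1 in 11, Gatad2a in 10, Rsf1 in 9 and Ercc6l in 8, and with the replicate number as a block 4 rather than 6 of the CHD and NuRD genes were called. Without stimulation Chd3 was called in 15 of 18, and was lost without WT replicate 1 or 2 or ACAT1 KO replicate 3.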
